A study of Ovis aries with 8 samples.

Results

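Transcripts of 8 transcription factors of endocrine specification and early pancreas development were measured in islets of near-term sheep fetuses. The 8 were chosen by symbol (NEUROG3, INSM1, PAX4, RFX3, RFX6, FOXA1, FOXA2 and HNF4A), and each matched exactly 1 of 25000 rows of the deposited table. One group of 4 fetuses, NE-Infused, received intravenous norepinephrine for 7 days at 1 µg/min on day 1, 2 µg/min on days 2 to 4 and 4 µg/min on days 5 to 7. The other group of 4, Saline-Control, was infused with diluent (ascorbic acid at 0.3% in saline at 0.9%). All were singletons of Columbia-Rambouillet ewes and the labels name no genetic modification. NE-Infused fetuses were 137 to 139 days of gestation and weighed 2.8 to 3.7 kg, and Saline-Control fetuses were 139 to 140 days and weighed 3.6 to 5 kg. The islets were picked by hand, so each library is a mixture of cell types.

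In the embryonic pancreas of the mouse, and as far as known in human, FOXA1 and FOXA2 open chromatin in foregut endoderm and HNF4A, a nuclear receptor, acts with them in the gut tube and later in the islet. NEUROG3, a basic helix-loop-helix factor, is switched on briefly in progenitors and starts endocrine differentiation. INSM1, PAX4, RFX3 and RFX6 act next to it or after it. The question here was which of these factors were still expressed close to birth, and whether a week of norepinephrine, a catecholamine that restrains insulin release, changed them.

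Of the 8 factors, 7 were on near term by the rule used here, at least 1 FPKM in all 8 animals. FPKM is a fragment count divided by transcript length and library size, so levels below are per length. Among all rows, 47.6% met that rule. The exception was NEUROG3, which lay below 1 FPKM in 7 of 8 animals. By mean over the 8 animals the order was INSM1 at 64.3 FPKM, FOXA2 at 44.2, HNF4A at 41.0, RFX6 at 28.0, PAX4 at 9.08, FOXA1 at 7.59, RFX3 at 3.39 and NEUROG3 at 0.505. INSM1 stood above 83.4% of the 13252 rows tested and RFX3 above 16.0%. The steps from INSM1 to FOXA2, from HNF4A to RFX6, from FOXA1 to RFX3 and from RFX3 to NEUROG3 held within 8 of 8 animals, and the step from RFX6 to PAX4 within 7. FOXA2 and HNF4A, and likewise PAX4 and FOXA1, could not be ordered, since the higher mean was the higher value in 5 of 8 animals only.

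Factors of other lineages, such as MYOD1 of muscle, NANOG of pluripotent cells and NKX2-1 of lung and thyroid, showed what a gene that should be off looks like in this table. Of 17 analysed, 10 were listed at 0 in all 8 animals and 16 were below 1 FPKM in all 8. Apart from TAL1, a factor of blood and endothelium that reached 1.56 FPKM, the highest value of any of them was 0.239. NEUROG3 values that were not 0 were above that level, and those listed at 0, in Saline-Control 2, 3 and 4, were not. TAL1, left out of that level, had a median of 0.801 FPKM, and its highest value was above every NEUROG3 value.

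**Figure D1:**
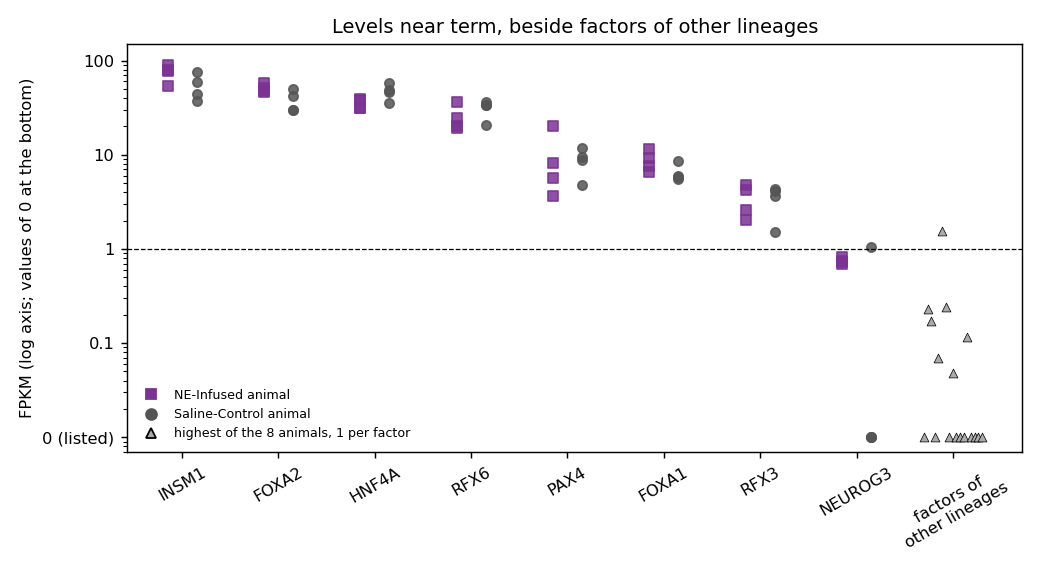
FPKM of each factor (log axis, values of 0 drawn at the bottom) in each NE-Infused animal (squares) and each Saline-Control animal (circles), ordered by mean, beside the highest value of each of 17 factors of other lineages (triangles). The dashed line marks 1 FPKM: 7 factors lie above it in all 8 animals and NEUROG3 lies at or below 1.06 FPKM.

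The islet label was checked against markers. CHGA, the granule protein chromogranin A, stood at 4047.0 to 5671.1 FPKM in NE-Infused islets and 2894.9 to 6211.8 FPKM in Saline-Control islets. The summed FPKM of 10 endocrine markers was 11117.5 to 17617.6 with norepinephrine and 8178.6 to 14369.6 in controls, with IAPP alone listed at 0 throughout; INS and PPY were not analysed here. Summed acinar markers (10 genes, none at 0 in all animals) were 138.7 to 1074.4 FPKM in NE-Infused islets, highest in NE-Infused 3, and 127.1 to 177.3 FPKM in Saline-Control islets. Duct markers summed to 1623.3 to 2525.1 FPKM in NE-Infused and 1752.7 to 2023.1 in Saline-Control islets. For endothelial and mesenchymal markers the sums were 357.2 to 1881.0 FPKM in NE-Infused and 515.6 to 819.4 in Saline-Control islets, and for leukocyte markers 146.7 to 239.8 in NE-Infused and 147.0 to 217.7 in Saline-Control islets. Libraries also differed by the number prefix, the leading 2 digits of each animal's number, whose meaning the labels do not give. NE-Infused animals 1, 3 and 4 and Saline-Control 2 are numbered 09, and NE-Infused 2 and Saline-Control 1, 3 and 4 are numbered 10. Summed FPKM was 981583.1 to 1112624.1 in animals numbered 09 and 768020.6 to 796149.0 in animals numbered 10. In such bulk samples a smaller number of cells of a type and less RNA per cell cannot be told apart.

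No factor passed the test for a difference between the groups. Values were compared as log2(FPKM + 1) with limma, a linear model fitted across all genes, at a Benjamini-Hochberg adjusted p under 0.05, and a positive difference means higher with norepinephrine. Of the 7 factors tested 0 passed, where 0% of the 13252 rows did. Without adjustment 2 of the 7, FOXA2 and HNF4A, had a p under 0.05, where 975 rows (7.36%) did. The NE-Infused and Saline-Control ranges overlapped for 8 of 8 factors, where 4.23% of the rows tested had ranges that did not overlap. The median difference of the 7 was 0.02, and that of all rows tested 0.017 (-0.12 for both with equal FPKM totals). With FPKM totals made equal the median over all rows shifted by -0.14, and factors whose sign turned under that scaling are named below. Differences were also taken within each number prefix (within 09, 3 NE-Infused animals against 1 control; within 10, 1 against 3).

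**Figure D2:**
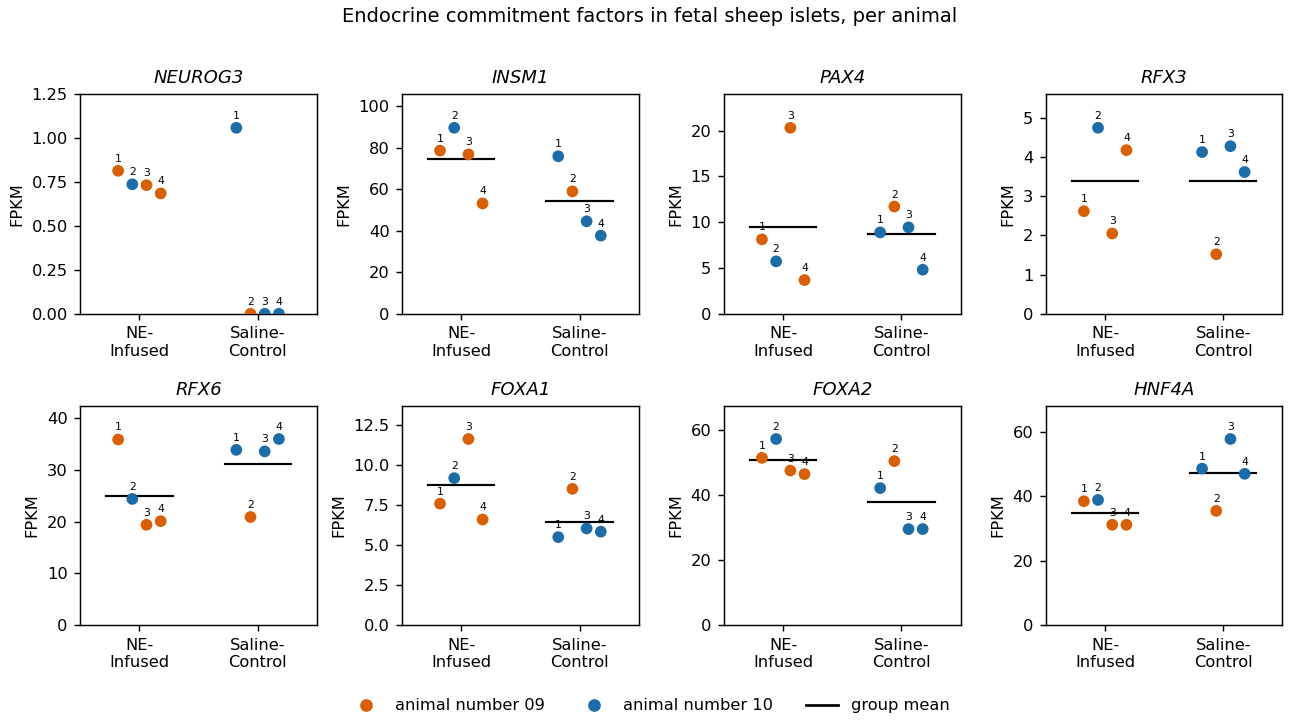
FPKM of the 8 factors in each animal, NE-Infused left and Saline-Control right in each panel; digits are replicate numbers, colours the first 2 digits of the animal number and bars the group means (none for NEUROG3, which has values listed at 0). The ranges of the groups overlap in all 8 panels, and the HNF4A values of animals numbered 10 lie above those numbered 09.

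NEUROG3, the factor that starts endocrine commitment (chromosome 25, 25706463 to 25707128 on Oar_v3.1), had 0.815, 0.738, 0.733 and 0.686 FPKM in NE-Infused animals 1 to 4. It had 1.06 FPKM in Saline-Control 1 and was listed at 0 in Saline-Control 2, 3 and 4. It was thus above 0 in 4 of 4 NE-Infused and 1 of 4 Saline-Control animals, and the single highest value was a control. Per animal 8481 to 8898 of the 25000 rows were at 0. The share of rows split in this way between the groups was not computed, so the split is a description only. Among the 151 rows with a locus of 630 to 700 bases, the lowest value above 0 was 0.0787 to 0.150 FPKM per animal. NEUROG3 stood 5.01 to 7.96 times above that value in the NE-Infused animals and 11.4 times above it in Saline-Control 1. A listed 0 is not necessarily an absence of RNA. ID2, an inhibitor of helix-loop-helix factors that many tissues express, was listed at 0 in all 8 animals, and 10 to 23 rows per animal were at 0 although their mean over the animals was at least 50 FPKM. Those rows were of any locus length, and ID2, unlike NEUROG3, had no value above 0. What the 0 values of NEUROG3 reflect was not tested. With a mean below 1 FPKM the gene was not tested beside the others. In the fit without that filter its difference was 0.54 (SE 0.23) on the log2(FPKM + 1) scale, with a limma adjusted p of 0.694.

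INSM1, a zinc-finger repressor that NEUROG3 activates in the mouse and that recruits the demethylase KDM1A through its SNAG domain, was the most abundant of the 8. The file gives it a locus of 374 bases on chromosome 13 (38979459 to 38979832), far shorter than the coding sequence known in human, and its FPKM is per length of that model. It had 78.5, 89.5, 76.7 and 53.1 FPKM in NE-Infused animals 1 to 4, against 75.8, 58.9, 44.5 and 37.6 FPKM in Saline-Control animals 1 to 4. The highest control fell among the NE-Infused values, and the lowest NE-Infused value fell among the controls. The means were 74.4 ± 15.3 FPKM in NE-Infused and 54.2 ± 16.9 in Saline-Control islets (SD, n = 4 each), a log2 difference of 0.48 (SE 0.24, 95% interval -0.06 to 1.01, limma adjusted p = 0.681). Within 09 it was 0.21 and within 10 it was 0.82.

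PAX4, a paired-homeobox repressor required for beta and delta cells in the mouse, varied most of the 7 tested, with a coefficient of variation of 57.6% over the 8 animals (22.8% to 34.8% in the other 6 tested). It had 8.12, 5.72, 20.3 and 3.68 FPKM in NE-Infused animals 1 to 4 and 8.88, 11.7, 9.43 and 4.81 FPKM in Saline-Control animals 1 to 4. NE-Infused 3 was far above the rest, while NE-Infused 4 was the lowest of all. The mean FPKM was higher with norepinephrine, 9.45 ± 7.44 in NE-Infused and 8.70 ± 2.86 in Saline-Control islets, while the difference of mean log2 values was -0.08 (SE 0.44, 95% interval -1.06 to 0.91, limma adjusted p = 0.970). Within 09 it was -0.39, within 10 it was -0.33, and with the number prefix in the model it was -0.36 (adjusted p = 0.838). Its sign turned without NE-Infused 2 (0.05), NE-Infused 4 (0.23) or Saline-Control 2 (0.07), and with gestational age in the model (0.50). NE-Infused 3 also had the highest acinar sum, 1074.4 FPKM, and the part of this in the PAX4 value was not tested. The gene lies on chromosome 4 (91909182 to 91913134).

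RFX3 and RFX6 are winged-helix factors that bind X-box motifs. RFX3 drives genes of the primary cilium and late beta-cell differentiation in the mouse, and RFX6 acts downstream of NEUROG3 and maintains beta-cell function in mouse and human. RFX6 (chromosome 8, 20778551 to 20830642) had 35.9, 24.4, 19.4 and 20.1 FPKM in NE-Infused animals 1 to 4 and 33.9, 20.9, 33.6 and 36.0 FPKM in Saline-Control animals 1 to 4. Of the 4 lowest values 3 were NE-Infused, and of the 4 highest 3 were controls. The means were 25.0 ± 7.63 FPKM in NE-Infused and 31.1 ± 6.88 in Saline-Control islets, and the log2 difference of -0.32 did not pass (SE 0.23, 95% interval -0.84 to 0.20, limma adjusted p = 0.775). Within 09 it was 0.20 and within 10 it was -0.48.

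RFX3 (chromosome 2, 71003150 to 71324756) averaged 3.40 ± 1.28 FPKM in NE-Infused and 3.38 ± 1.27 in Saline-Control islets. It had 2.62, 4.75, 2.05 and 4.18 FPKM with norepinephrine and 4.13, 1.52, 4.28 and 3.62 FPKM in controls, animals 1 to 4 each. The lowest values belonged to Saline-Control 2 and to NE-Infused 3 and 1, all numbered 09. The log2 difference was 0.02 (SE 0.30, limma adjusted p = 0.991), and its 95% interval of -0.66 to 0.69 leaves room for changes in either direction. Within 09 it was 0.61 and within 10 it was 0.20, and with the number prefix in the model it was 0.41 (adjusted p = 0.537). The sign turned with equal FPKM totals (-0.12) or equal upper quartiles (-0.0037), and without NE-Infused 2 (-0.13), NE-Infused 4 (-0.08) or Saline-Control 2 (-0.23).

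FOXA1 and FOXA2, forkhead factors that bind closed chromatin and are jointly required for pancreas formation in the mouse, both had higher means after norepinephrine and did not pass. FOXA2 (chromosome 13, 40650387 to 40651854) had 51.4, 57.2, 47.5 and 46.4 FPKM in NE-Infused animals 1 to 4, against 42.1, 50.4, 29.5 and 29.5 FPKM in Saline-Control animals 1 to 4. Of the controls, Saline-Control 2 alone lay within the NE-Infused range. The means were 50.6 ± 4.86 FPKM in NE-Infused and 37.9 ± 10.3 in Saline-Control islets, a log2 difference of 0.44 (SE 0.19, 95% interval 0.02 to 0.86, limma unadjusted p = 0.0409, adjusted p = 0.664). Within 09 the difference was -0.06 and within 10 it was 0.77. The test of the difference between these values, a term in the limma model, gave 0.82 (SE 0.31, unadjusted p = 0.0370, adjusted p = 0.848), where 5.61% of the rows had an unadjusted p under 0.05. By the adjusted p of that term 0 of the 7 factors passed, where 0.121% of the rows did.

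FOXA1 (chromosome 18, 46659257 to 46661206) had 7.57, 9.16, 11.6 and 6.58 FPKM in NE-Infused animals 1 to 4 and 5.48, 8.49, 6.02 and 5.82 FPKM in Saline-Control animals 1 to 4. Again Saline-Control 2 was the control that reached into the NE-Infused range. The log2 difference was 0.38 (SE 0.20, 95% interval -0.08 to 0.83, limma adjusted p = 0.701), and it was -0.02 within 09 and 0.58 within 10. Both FOXA genes had higher means with equal FPKM totals as well (0.24 for FOXA1 and 0.29 for FOXA2).

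HNF4A, whose mutation causes a monogenic diabetes in human, had the lower mean after norepinephrine and did not pass. On chromosome 13 (72383636 to 72412129), it had 38.4, 38.8, 31.1 and 31.1 FPKM in NE-Infused animals 1 to 4, against 48.5, 35.4, 57.7 and 46.9 FPKM in Saline-Control animals 1 to 4. Saline-Control 2 was the only control within the NE-Infused range. The means were 34.8 ± 4.34 FPKM in NE-Infused and 47.1 ± 9.15 in Saline-Control islets, a log2 difference of -0.41 (SE 0.16, 95% interval -0.78 to -0.04, limma unadjusted p = 0.0324, adjusted p = 0.641). It was -0.08 within 09, -0.38 within 10, and -0.23 (adjusted p = 0.559) with the number prefix in the model. With gestational age in the model it was -0.18.

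**Figure D3:**
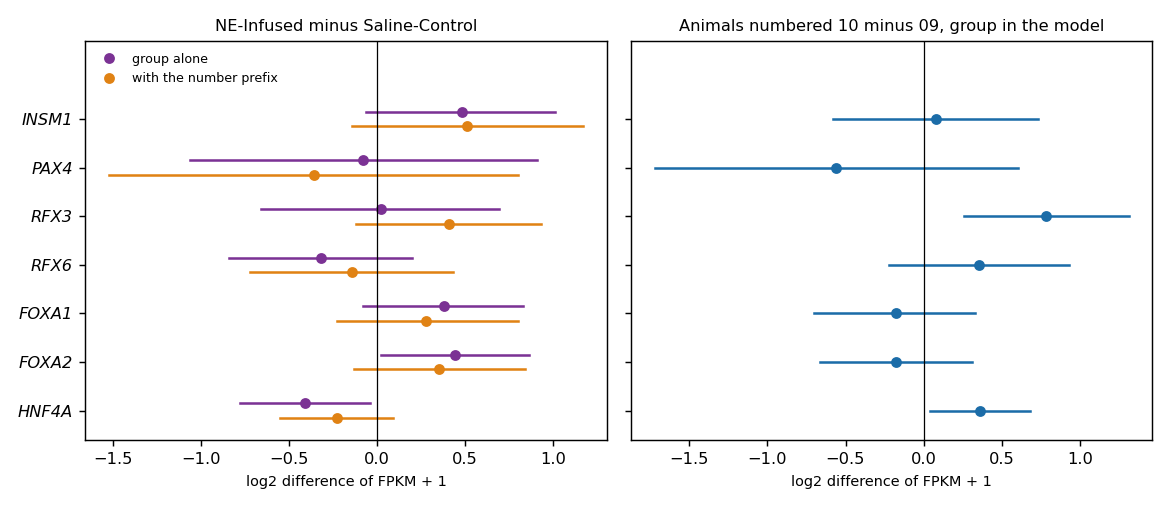
Log2 difference of FPKM + 1 with its 95% interval from limma for the 7 factors tested, NE-Infused minus Saline-Control on the left (with and without the animal-number prefix in the model) and animals numbered 10 minus 09 on the right. In the left panel the intervals of FOXA2 and HNF4A from the model of groups alone exclude 0 before adjustment, and in the right panel those of RFX3 and HNF4A do.

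Because 3 of 4 NE-Infused animals carry the number 09 and 3 of 4 controls the number 10, the prefix was also tested, with group in the model. By limma 2187 of 13252 rows (16.5%) differed between animals numbered 10 and 09 at an adjusted p under 0.05, and 0 of the 7 factors did; 803 rows (6.06%) were higher and 1384 lower in 10. With equal FPKM totals 4109 were higher and 237 lower, and the median over all rows was 0.31 in place of -0.09, so directions between the prefixes depend on the scaling. On the values as deposited, the count of 2187 became 18 without Saline-Control 2, the only control numbered 09. It was 710 without NE-Infused 2, and 859, 915 and 1119 without Saline-Control 3, 1 and 4. Unadjusted, 34.6% of the rows and 2 of the 7 factors had a p under 0.05. RFX3 came nearest, 3.62 to 4.75 FPKM in animals numbered 10 and 1.52 to 4.18 in those numbered 09, a log2 difference of 0.78 (SE 0.23, adjusted p = 0.0517). It passed without NE-Infused 4 (0.90, adjusted p = 0.0192), with a pseudocount of 0.1 (adjusted p = 0.0491) and with equal FPKM totals (adjusted p = 0.00799), and its adjusted p was 0.377 without Saline-Control 2. HNF4A was the 1 factor of 7 tested that did not overlap between the prefixes, where 25.4% of the rows did not, at 38.8 to 57.7 FPKM in 10 and 31.1 to 38.4 FPKM in 09, a difference of 0.36 (adjusted p = 0.107; 0.00823 with equal FPKM totals). RFX6 differed by 0.35 (adjusted p = 0.346), and passed without NE-Infused 1 (0.51, adjusted p = 0.0377). By the model 8 of 8 tested acinar markers were at lower values in 10 than in 09 (median -1.44; 6 of 8 and -1.10 with equal FPKM totals). Among all marker lists 5 genes passed, all lower in 10, where 16.5% of all rows passed and 1384 of those 2187 were lower. They were 1 of 8 tested acinar, 1 of 7 duct, 1 of 6 leukocyte and 2 of 9 endocrine markers. Of 10 endothelial and mesenchymal and 3 hepatocyte and intestinal markers tested, 0 passed. The 5 were CTRC of acinar cells (-1.46, adjusted p = 0.0251), CLDN4 of ducts (-1.36, adjusted p = 0.0395), CD3E of T cells (-0.66, adjusted p = 0.0458) and the endocrine granule genes CHGA (-0.66, adjusted p = 0.0409) and SCG5 (-0.68, adjusted p = 0.0182). With equal FPKM totals CTRC alone of the 5 passed (adjusted p = 0.0273), and without Saline-Control 2 there were 0 of 5 that did (adjusted p 0.208 to 0.417). The part of these markers in the differences of the factors was not tested.

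Each group holds 1 female fetus, NE-Infused 3 and Saline-Control 2, both numbered 09. This was looked at after the values were seen. PAX4 was highest in its group in both females, 20.3 FPKM in NE-Infused 3 and 11.7 FPKM in Saline-Control 2, and so was FOXA1, at 11.6 FPKM in NE-Infused 3 and 8.49 FPKM in Saline-Control 2. RFX3 was lowest in its group in both, at 2.05 FPKM in NE-Infused 3 and 1.52 FPKM in Saline-Control 2. With fetal sex beside group in limma, the female minus male difference was 1.14 for PAX4 (SE 0.36, adjusted p = 0.199), 0.51 for FOXA1 (SE 0.16, adjusted p = 0.195), -0.82 for RFX3 (SE 0.22, adjusted p = 0.174), -0.55 for RFX6 (adjusted p = 0.235) and -0.36 for HNF4A (adjusted p = 0.264). Of the 7 factors 0 passed, where 6 of 13252 rows (0.0453%) did; unadjusted, these 5 had a p under 0.05, where 18.2% of the rows did. With the number prefix also in the model, PAX4 differed by 1.38 (unadjusted p = 0.0262), FOXA1 by 0.70 (unadjusted p = 0.00348) and RFX3 by -0.53 (unadjusted p = 0.0656), with limma adjusted p of 0.311, 0.229 and 0.406. In that model RFX6 differed by -0.56 and HNF4A by -0.21 (limma unadjusted p = 0.0858 and 0.276, adjusted p = 0.437 and 0.637). Of these 5, PAX4 and FOXA1 alone then had an unadjusted p under 0.05. With 1 female a group, sex and the individual animal cannot be told apart.

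Ratios of FPKM between factors were taken within each animal, where its library's scaling cancels; the log2 ratios tested have 1 added to each FPKM, so there it cancels only in part. HNF4A over FOXA2 was 0.747, 0.679, 0.654 and 0.670 in NE-Infused animals 1 to 4, against 1.15, 0.702, 1.96 and 1.59 in Saline-Control animals 1 to 4. FOXA2 exceeded HNF4A in 4 of 4 NE-Infused animals and in 1 of 4 controls, Saline-Control 2. As a log2 ratio, with 1 added to each FPKM, it was -0.53 ± 0.08 with norepinephrine and 0.32 ± 0.63 in controls (SD, n = 4 each), a difference of -0.85. An exact two-sided permutation test gave p = 0.0571 (adjusted over the 4 ratios computed, p = 0.229), where the smallest p possible is 0.0286. Within 09 the difference was -0.03 and within 10 it was -1.15.

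RFX6 over INSM1 was 0.253 to 0.458 in NE-Infused animals and 0.355 to 0.960 in controls, a log2 difference of -0.80 (exact permutation p = 0.143, adjusted p = 0.286). Within 09 it was -0.01 and within 10 it was -1.30. RFX3 over RFX6 (0.0729 to 0.208 with norepinephrine, 0.0727 to 0.127 in controls) differed by 0.34 (exact permutation p = 0.343, adjusted p = 0.457), by 0.41 within 09 and by 0.69 within 10. FOXA1 over FOXA2 was 0.142 to 0.245 with norepinephrine and 0.130 to 0.204 in controls, a log2 difference of -0.07 (exact permutation p = 0.857, adjusted p = 0.857), with 0.04 within 09 and -0.18 within 10.

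**Figure D4:**
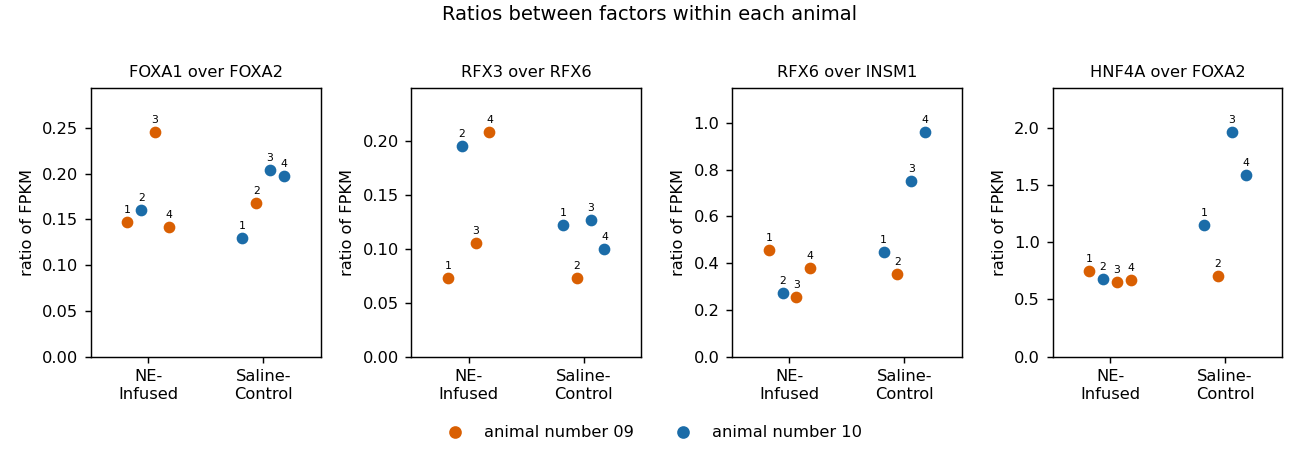
Ratio of FPKM between pairs of factors in each animal, NE-Infused left and Saline-Control right; digits are replicate numbers and colours the first 2 digits of the animal number. HNF4A over FOXA2 lies between 0.654 and 0.747 in the NE-Infused animals and between 0.702 and 1.96 in the controls, where the control numbered 09 is the lowest.

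The genes around these factors were looked at by list. Counts of genes with higher or lower means in the lists are by mean log2(FPKM + 1), while group means are given as FPKM. In the 6 lists of related genes 10 of 60 genes tested passed between the number prefixes, where 2187 of 13252 rows (16.5%) did. These 10 are named below. Without Saline-Control 2, 0 of those 10 passed (differences of the same sign, limma adjusted p 0.147 to 0.266), and without NE-Infused 2 or Saline-Control 1, 3 and 4 there were 4, 5, 6 and 7. With equal FPKM totals GATA4, MYC and IFT20 did not pass (limma adjusted p = 0.194, 0.301 and 0.187) and the other 7 did, while 16 further genes of these lists passed, which made 23, of which 21 were higher and 2 lower in 10. Under that scaling 4346 of 13252 rows passed, 4109 higher and 237 lower in 10. Of 15 tested genes of the endocrine cascade that follows NEUROG3, 11 had higher and 4 lower means after norepinephrine, with a median of 0.16 (all 13252 rows: 6975 higher, 6277 lower, median 0.017), and 0 passed. With equal FPKM totals 9 were higher and 6 lower. The most abundant were PAX6, a factor of all islet cell types, at 119.9 ± 31.2 FPKM in NE-Infused and 102.4 ± 17.7 in Saline-Control islets, and NKX6-1, a beta-cell factor, at 114.9 ± 36.8 in NE-Infused and 95.4 ± 9.35 in Saline-Control islets. By the prefix, PAX6 (0.54, adjusted p = 0.0456) and PROX1 (1.27, adjusted p = 0.0119) were higher in animals numbered 10. Of 12 tested progenitor genes, 8 had higher means, the median was 0.08 and 0 passed (4 of 12 higher, median -0.06, with equal FPKM totals). DLK1, a non-canonical Notch ligand, led with 7140.4 ± 2040.3 FPKM in NE-Infused and 6333.5 ± 3691.8 in Saline-Control islets, followed by PDX1 at 272.4 ± 47.6 in NE-Infused and 256.9 ± 30.9 in Saline-Control islets and MYC at 70.8 ± 23.1 in NE-Infused and 53.9 ± 9.55 in Saline-Control islets. DLK1 (-1.17, adjusted p = 0.0103), GATA4 (-0.76, adjusted p = 0.0293) and MYC (-0.70, adjusted p = 0.0371) were lower in 10 than in 09. The progenitor factor PTF1A was, like NEUROG3, below the filter, at 0 to 3.32 FPKM with norepinephrine and 0 to 2.33 FPKM in controls.

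Of 9 relatives of the factors analysed, 5 were at 1 FPKM or more in all 8 animals and 4 were below 1 FPKM in all 8. RFX7 stood at 7.56 ± 1.28 FPKM in NE-Infused and 7.55 ± 1.66 in Saline-Control islets, RFX5 at 5.52 ± 2.52 in NE-Infused and 8.20 ± 2.93 in Saline-Control islets, and RFX1 at 5.53 ± 0.947 in NE-Infused and 5.35 ± 0.843 in Saline-Control islets. HNF4G, a close relative of HNF4A, stood at 4.57 ± 0.726 FPKM in NE-Infused and 5.99 ± 1.94 in Saline-Control islets, and INSM2 at 0 to 0.528 FPKM in NE-Infused and 0 to 0.389 in Saline-Control islets. Of the 5 tested relatives (RFX1, RFX2, RFX5, RFX7 and HNF4G) 3 had higher means after norepinephrine and 0 passed, with a median of 0.01; with equal FPKM totals 5 of 5 had lower means. All 5 had higher values in 10 than in 09 by the model under both scalings (median 0.44, all rows -0.088), and RFX2 (0.80, adjusted p = 0.0414) and RFX5 (1.04, adjusted p = 0.0103) passed.

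Corepressors and helix-loop-helix partners of INSM1 and NEUROG3 were present near term, 11 of 12 analysed at 1 FPKM or more in all 8 animals. HDAC2 stood at 219.9 ± 16.9 FPKM in NE-Infused and 198.4 ± 13.6 in Saline-Control islets, HDAC1 at 198.3 ± 14.7 in NE-Infused and 167.6 ± 13.6 in Saline-Control islets, and ID1, which sequesters partners of such factors, at 89.8 ± 29.7 in NE-Infused and 69.7 ± 39.8 in Saline-Control islets. Of 11 tested, 7 had higher means, with a median of 0.15, and 0 passed (5 of 11 with equal FPKM totals). RCOR1, a CoREST subunit, was higher in animals numbered 10 (0.73, adjusted p = 0.0251).

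Genes known as targets in mouse or human were divided in direction. For RFX3 and RFX6, 5 of 10 tested targets had higher and 5 lower means, and 0 passed (2 higher and 8 lower with equal FPKM totals). ABCC8, the sulfonylurea receptor, stood at 113.9 ± 34.0 FPKM in NE-Infused and 98.9 ± 38.3 in Saline-Control islets. Of ciliary genes, IFT20 was at 89.5 ± 19.6 FPKM in NE-Infused and 111.1 ± 31.0 in Saline-Control islets, and BBS4 at 49.6 ± 5.81 FPKM in NE-Infused and 48.0 ± 1.67 in Saline-Control islets. IFT20 was lower in animals numbered 10 (-0.66, adjusted p = 0.0141). For FOXA2 and HNF4A, 4 of 10 targets had higher and 6 lower means, with a median of -0.14, and 0 passed (3 higher and 7 lower with equal FPKM totals). Beside PDX1, named above, the most abundant were TTR, transthyretin, at 319.7 ± 193.8 FPKM in NE-Infused and 221.4 ± 120.1 in Saline-Control islets, and HADH, a mitochondrial enzyme that restrains insulin release, at 258.6 ± 73.7 in NE-Infused and 192.8 ± 36.7 in Saline-Control islets. APOA1 was lower in animals numbered 10 (-1.35, adjusted p = 0.0107). All adjusted p-values in these lists are limma's over the 13252 rows.

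**Figure D5:**
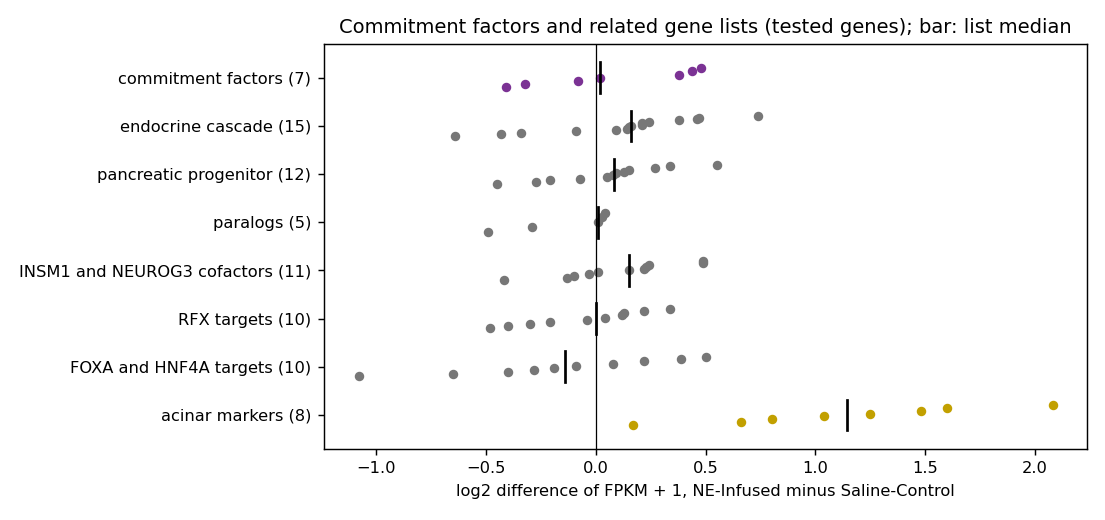
Log2 difference of FPKM + 1, NE-Infused minus Saline-Control, of each tested gene (points) among the factors studied here (labelled commitment factors), in 6 lists of related genes and in the acinar markers. The list median is a bar and the number of tested genes is in parentheses. The 7 factors spread from -0.41 to 0.48 around a median of 0.02, and the acinar markers have a median of 1.15.

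Of the acinar markers 8 of 8 tested had a higher mean log2(FPKM + 1) with norepinephrine (median difference 1.15). Of the endocrine markers 8 of 9 did (median 0.49, or 0.33 with equal FPKM totals). So did 4 of 7 duct, 2 of 10 endothelial and mesenchymal, 3 of 6 leukocyte and 2 of 3 hepatocyte and intestinal markers, and 6975 of 13252 rows. By mean FPKM the direction differed for some. COL1A1, COL1A2, COL3A1 and PDGFRB had a higher mean FPKM but a lower mean log2 value with norepinephrine, and CD68 the reverse. The acinar sum of NE-Infused 2 was 138.7 FPKM, within the control range of 127.1 to 177.3 FPKM. In these lists 0 genes passed between the groups. The part of the markers in the values of the factors, of which HNF4A, FOXA1 and FOXA2 are also known in exocrine cells, was not tested.

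The symbols whose pattern over the 8 animals was most like each factor were taken as the 3 with the highest Pearson correlation of log2(FPKM + 1) among 11370 rows with a symbol. The animals share group and number prefix, and with that many rows high values are found for any gene, so these are descriptions. For INSM1 they were TNRC18 (0.975), C10orf35 (0.962) and DCP1B (0.960). For PAX4 they were GRPEL2 (0.974), VTA1 (0.965) and MAGI3 (0.947). RFX3 was most like RBM41 (0.986), ICK (0.973) and PDS5A (0.969), and RFX6 most like SNAP23 (0.975), EED (0.951) and HPSE (0.951). FOXA1 was most like TMTC4 (0.962), C6 (0.958) and CXADR (0.935), FOXA2 most like PHRF1 (0.966), CHCHD10 (0.958) and SPR (0.943), and HNF4A most like ARMCX2 (0.980), HEG1 (0.975) and KAL1 (0.970). No other factor of the 8 was among them.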

How the data were processed

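RNA of hand-picked islets from 8 fetuses was selected for mRNA and sequenced as paired reads of 100 bp from TruSeq libraries, per the labels' protocols. Per the submitters' processing notes, the tools were TopHat2 2.0.1, Cufflinks 2.1.1 and Cuffdiff on Oar_v3.1. No source used here gives the annotation, filters or strand setting. FPKM values deposited by the authors fill 1 column per animal and 25000 rows. They include no counts, so no counting interval was computed. Steps of low values gave relative depths of 0.649 to 1.16 against Saline-Control 1 in the animals where such a step was found, which excludes NE-Infused 4 and Saline-Control 2.

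Columns were matched to animals by animal number. Starts were raised by 1 to count from 1. All 8 symbols were found in RefSeq's genes of ARS-UI_Ramb_v3.0, a different assembly used for names only. Values were analysed as log2(FPKM + 1), which understates changes of low genes, in rows with a mean of at least 1 FPKM, with limma 3.58.1 in R 4.3.3 (lmFit, eBayes with intensity trend, two-sided), and ratios with an exact permutation test. The fit was tested on simulated data. Labels give each fetus its own number, weight and age, so replicates are separate animals.

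Named were all 8 factors, the 3 most abundant genes and any past the threshold of each list as tested on log2(FPKM + 1), and the 3 genes most like each factor (1 gene so chosen is not reported here); HNF4G, INSM2, PTF1A, ID2, TAL1 and CHGA were added after their values were seen. Marker lists are given as summed FPKM per animal, except the hepatocyte and intestinal list, and as counts of tested genes. The factors and lists were chosen with earlier results of these data known. Alternatives were the pseudocount, filter, scaling, variance trend, covariates, a replicate block and leaving out each animal; leaving out animals in the comparison of number prefixes, the group-by-prefix term and fetal sex were added after seeing the data.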

Additional observations from a re-analysis of the deposited data

Results flagged for a closer look

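In 24 groups of 4 values (each factor and each ratio in each group), 2 had a lowest or highest animal set apart from the other 3 by more than Dixon's 95% critical value, which chance does in about 1 group of 20. NEUROG3 stood at 1.06 FPKM in Saline-Control 1, while the other 3 controls are listed at 0. With 3 equal values the gap fills the whole range whatever the remaining value is, so that rate does not apply to NEUROG3. The ratios reuse the factors, so the 24 groups are not independent. RFX6 stood at 20.9 FPKM in Saline-Control 2, against 33.6 to 36.0 in the other 3 controls; Saline-Control 2 is the only control numbered 09 and the only female control.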

How the results depend on the processing

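No alternative brought any of the 7 tested factors past the threshold between NE-Infused and Saline-Control (18 alternatives each, 17 for RFX3, which a filter of 5 FPKM removes). INSM1 ranged from 0.32 to 0.75, FOXA1 from 0.24 to 0.57, FOXA2 from 0.29 to 0.59, RFX6 from -0.50 to -0.11 and HNF4A from -0.56 to -0.18, all keeping their sign; the lowest adjusted p of any factor was 0.216, for HNF4A without Saline-Control 2. RFX3 turned with equal FPKM totals (-0.12) and upper quartiles (-0.0037), ran from -0.23 to 0.18 leaving out 1 animal, and was 0.41 with the prefix in the model; PAX4 turned with gestational age (0.50) and ran from -0.50 to 0.23. The cause was not tested. The count of genes past the threshold was 1 with equal totals, 1 with the prefix in the model and 0 to 2 leaving out 1 animal (2 without NE-Infused 1, 1 without NE-Infused 3).

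Between number prefixes the count was 4346 with equal totals and 18 to 2272 leaving out 1 animal. With equal totals FOXA1 (0.22) and FOXA2 (0.27) turned, and RFX3 (1.11) and HNF4A (0.80) passed; RFX3 also passed with a pseudocount of 0.1 (1.03). Leaving out 1 animal gave INSM1 -0.22 to 0.38, FOXA1 -0.49 to 0.12, FOXA2 -0.59 to 0.24, RFX3 0.58 to 0.99 and RFX6 0.01 to 0.70. FOXA1 over FOXA2 ran from -0.23 to 0.02 and was 0.04 within 09. At limits of 0.5 and 5 FPKM, 7 and 5 factors were on in all 8 animals.

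Same-numbered animals of the 2 groups are different fetuses and did not deviate together (correlations -0.156, -0.381, -0.034 and 0.093); with the replicate block 0 genes passed. No depth is known for NE-Infused 4 and Saline-Control 2, and 4 animals a group leave a 95% interval of -1.06 to 0.91 for PAX4.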
